A study of Mus musculus with 29 samples.

Results

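The genes described are 9 that mark the blood-brain barrier of brain endothelial cells: 7 transporters (Abcb1a, Abcg2, Slco1a4, Slco1c1, Slc2a1, Slc7a5 and Mfsd2a) and 2 tight junction genes (Cldn5 and Ocln). They were taken by gene name from 4 tables of differential expression and joined by gene ID, and all 9 were found in all 4 tables, among 15672 genes listed in any table and 14799 listed in all. The study compared male C56BL/6 mice, labelled 3 months old and housed singly, in contextual fear conditioning, with polyadenylated RNA from tissue of hippocampal CA1 or the anterior cingulate cortex (ACC). In CA1 there were 5 naive libraries, 5 taken 1 h after exposure to a new context and 4 taken 1 h after the context with a footshock of 0.7 mA. In ACC there were 5 naive libraries, 5 taken 4 weeks after the context and 5 taken 4 weeks after context plus shock. No group was sampled at both times in 1 region, and the labels give naive ACC mice no later age, so time since training, age and training cannot be told apart in ACC, nor region and time between CA1 and ACC. Each table compares 1 trained group with the naive mice of the same region and gives 1 mean, 1 fold change and 1 p per gene, with no value per library. The depth per library is therefore unknown here. A gene is called where its deposited adjusted p is under 0.05, and intervals are those of 95% implied by the deposited p. Positions of genes are those of the deposited tables, in build mm10 per the submitters' processing notes.

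Endothelial cells of brain capillaries are sealed by tight junctions, and solutes cross them through carriers in their membranes. The claudin encoded by Cldn5 forms the barrier's paracellular seal and the occludin of Ocln is a further membrane protein of the junction. Abcb1a (P-glycoprotein) and Abcg2 (breast cancer resistance protein) encode pumps that return drugs and other lipophilic compounds to the blood. Slco1a4 encodes a carrier of organic anions, and Slco1c1 a carrier of thyroxine that astrocytes express too. Slc2a1 encodes the glucose carrier GLUT1, Slc7a5 the large neutral amino acid carrier LAT1, and Mfsd2a a carrier of lysophospholipids that also keeps vesicle transport across the endothelium low.

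Promoters of 8 of the 9 genes were matched by symbol in RefSeq (build GRCm38.p6); each runs from 250 bases before to 50 bases after an annotated start. Shown are the genes called higher in CA1, Cldn5 (chr16:18776597-18776896, plus strand) and Slco1c1 (chr6:141524104-141524403, plus strand), and a pair called lower in ACC after shock, Slco1a4 (chr6:141856171-141856470, minus strand) and Slc2a1 (chr4:119108495-119108794, plus strand). Capitals mark matches, on either strand, to TCF/LEF (CTTTGA), FOX (TGTTTAC), ETS (CCGGAA), GC box (GGGCGG) and TATA box (TATAAA) letters.
Cldn5: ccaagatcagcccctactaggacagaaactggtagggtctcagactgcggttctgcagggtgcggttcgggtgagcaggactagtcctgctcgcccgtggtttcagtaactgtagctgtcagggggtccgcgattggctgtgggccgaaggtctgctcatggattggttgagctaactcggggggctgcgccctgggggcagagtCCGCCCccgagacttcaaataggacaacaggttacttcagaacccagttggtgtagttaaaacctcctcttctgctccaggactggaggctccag
Slco1c1: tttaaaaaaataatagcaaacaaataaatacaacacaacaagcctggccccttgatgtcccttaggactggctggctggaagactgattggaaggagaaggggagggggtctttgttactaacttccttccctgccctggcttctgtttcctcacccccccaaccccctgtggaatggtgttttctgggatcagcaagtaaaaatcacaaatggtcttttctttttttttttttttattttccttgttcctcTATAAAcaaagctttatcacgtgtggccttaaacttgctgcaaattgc
Slco1a4: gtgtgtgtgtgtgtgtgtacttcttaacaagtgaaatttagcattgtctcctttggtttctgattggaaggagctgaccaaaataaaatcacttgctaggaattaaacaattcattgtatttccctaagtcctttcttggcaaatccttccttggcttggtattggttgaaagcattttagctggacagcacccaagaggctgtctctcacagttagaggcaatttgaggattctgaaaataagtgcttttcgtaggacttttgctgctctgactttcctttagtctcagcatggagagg
Slc2a1: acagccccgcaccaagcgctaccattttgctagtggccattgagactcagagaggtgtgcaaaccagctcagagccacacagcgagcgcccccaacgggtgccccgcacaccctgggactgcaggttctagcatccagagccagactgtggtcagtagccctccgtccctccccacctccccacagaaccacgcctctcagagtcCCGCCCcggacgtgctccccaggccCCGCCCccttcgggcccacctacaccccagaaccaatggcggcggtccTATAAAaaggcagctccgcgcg
GC box letters, found in 35.6% of 32817 promoters of this length, were in those of Cldn5, Slc2a1, Abcg2 and Ocln. TATA box letters, found in 13.6%, were in those of Slco1c1, Slc2a1 and Abcg2. TCF/LEF letters, found in 16.0% of promoters, were in those of Abcb1a and Mfsd2a, and FOX letters, found in 3.65%, in that of Abcb1a. The only Abcb1a window (chr5:8566841-8567140, plus strand) lies outside and before the measured gene, whose start is at 8660077. ETS letters, found in 14.9%, were in 1 of the promoters of Ocln. The printed Slco1a4 window held none of the motifs searched. Its 300 bases and those of Slco1c1 held 1 CpG each, against 12 for Cldn5, 18 for Slc2a1 and a median of 7 over all promoters. None of these motifs is shared by all members that moved together, and a match is a description of letters only.

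The members were well within the measured range. Per the authors' deposited tables their mean normalised counts ran from 203 (Ocln) to 1881 (Slc2a1) in the CA1 context table and from 191 to 1965 in the ACC shock table, with lowest means of about 10 over all genes. Per kilobase of the longest transcript, the mean level in the CA1 context table was highest for Slc2a1 (577), followed by Slc7a5 (474), Slco1c1 (409), Cldn5 (373), Slco1a4 (299), Mfsd2a (203), Abcb1a (112), Abcg2 (70.1) and Ocln (49.99). Slc2a1 stood above 86.6% of all genes on this scale and Ocln above 31.3%. In the ACC context table the order differed only in that Slco1a4 (359.8 per kilobase) stood above Cldn5 (276). Without values per library, no spread is at hand to say which neighbours in this order differ. In bulk tissue, fewer cells of a type and less RNA per cell cannot be told apart.

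Group means were recovered from each table's mean, fold change and group sizes. Between the pair of tables of a region, the naive mean recovered this way differed by a nearly constant factor over genes whose mean reached 50, with a median ratio of 1.01 in CA1 (5th to 95th percentile 1.005 to 1.011) and 1.09 in ACC (1.088 to 1.096), so the deposited fold changes behave as ratios of trained over naive means. CA1 libraries carried CA1 genes: Fibcd1 had a mean of 4061 in the CA1 context table and 128 in the ACC context table, and the cortical gene Tbr1 had 1327 and 3603, on scales normalised separately. By the authors' deposited log2 fold changes, region genes also differed between trained and naive mice. In CA1 after shock the cortical genes Cux2 (-0.63), Tbr1 (-0.36) and Rorb (-0.24) were called lower and the CA1 gene Spink8 (0.48) higher. In CA1 after context Rorb (-0.27) was called lower. In ACC after context and shock the CA1 gene Wfs1 was higher (0.36 and 0.34) and Cux2 lower (-0.29 and -0.28). Other values of these genes and of Fibcd1 were not called. The part of the tissue sampled in the members' values was not tested. The endothelial markers Pecam1, Flt1 and Kdr were listed in all tables.

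**Figure D1:**
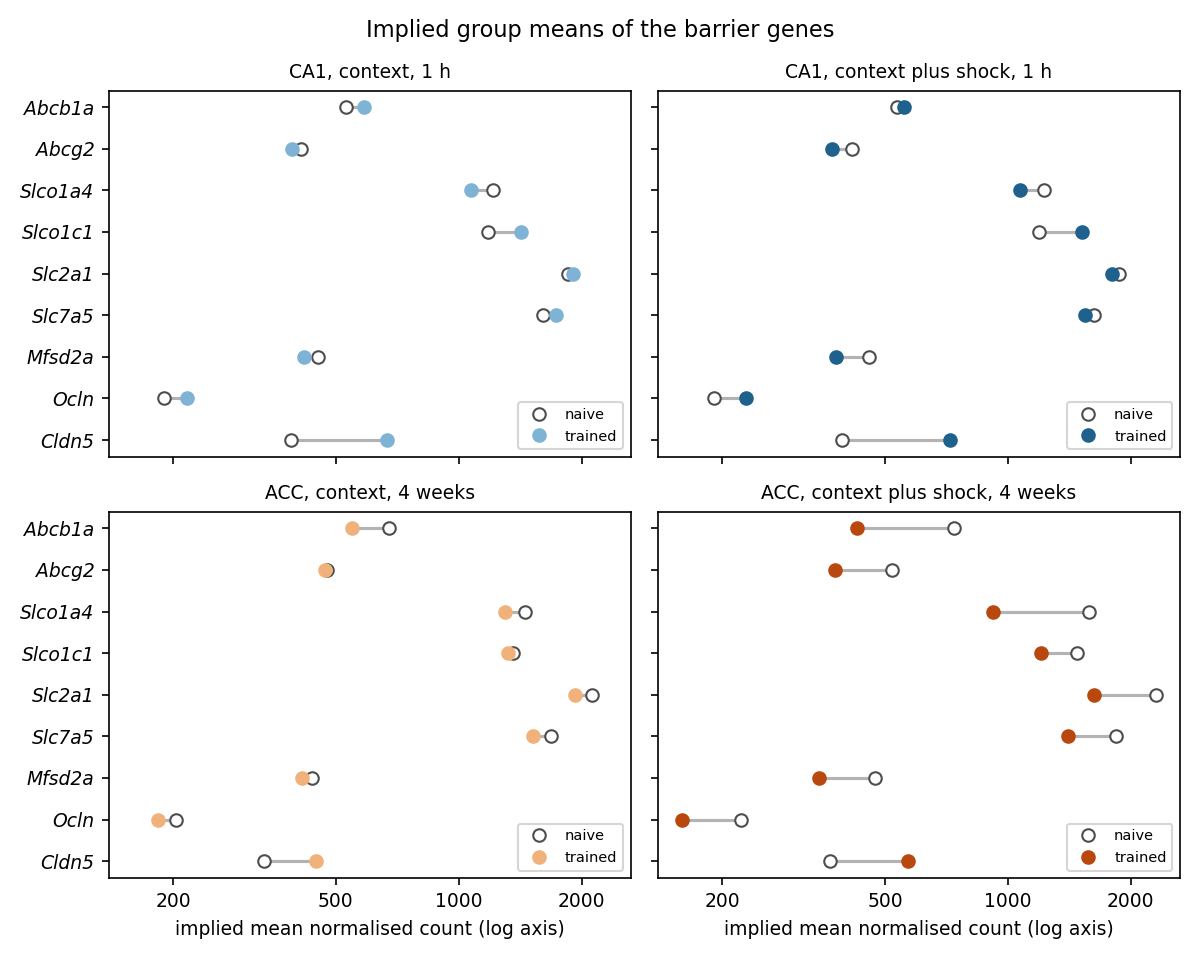
Implied mean normalised count (log axis) of the 9 barrier genes in naive mice (open circles) and in trained mice (filled circles), 1 panel per comparison. Cldn5 lies to the right of its naive value in all 4 panels, and in ACC after shock the other 8 genes lie to the left of theirs.

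In CA1 at 1 h after the context, Cldn5 and Slco1c1 rose and Slco1a4 fell slightly. Cldn5 (chromosome 16, 18776847 to 18778260) had an implied mean of 389 in naive and 668 in context mice, 71.7% higher. Its log2 fold change was 0.78 in the authors' deposited table (95% interval 0.57 to 0.99, adjusted p = 9.77e-10), above that of 99.6% of all genes. Slco1c1 (chromosome 6, 141524386 to 141570177) had 1182 in naive and 1418 in context mice, or 0.26 on the log2 scale by the authors' deposited table (interval 0.16 to 0.37, adjusted p = 0.000115). Slco1a4, which lies 235 kb from Slco1c1 on the other strand (chromosome 6, 141805440 to 141856199), had 1213 and 1070, or -0.18 on the log2 scale by the authors' deposited table (interval -0.29 to -0.07, adjusted p = 0.0255). With a spline on length and GC taken out, Slco1a4 stood at -0.08 and was no longer called (adjusted p = 0.565).

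In all, 3 of the 9 members were called in CA1 after context, where 8.03% of all 15123 genes were called (4.62% higher and 3.41% lower). The other 6 had log2 fold changes of -0.12 (Mfsd2a) to 0.19 (Ocln) in the authors' deposited table, with adjusted p of 0.258 to 0.846 and intervals within -0.34 to 0.44. Slc2a1 had implied means of 1855 and 1907, and Abcb1a 529 and 587. The median over the members was 0.10, against -0.00357 over all genes, and their summed implied means were 7832 and 8402.

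Other barrier genes measured in CA1 after context were called in both directions, beside 4.62% of all genes higher and 3.41% lower. Of 26 further transporters 5 rose and 1 fell. Slc7a1, a carrier of cationic amino acids, stood at 0.31 on the log2 scale, Slc16a1, the monocarboxylate carrier MCT1, 0.24 and Tfrc, the transferrin receptor, -0.28 in the authors' deposited table. Of 19 further junction genes 5 rose and 2 fell, among them Cdh5 (VE-cadherin) with 0.44, the catenin gene Ctnnd1 with 0.31 and Cldn1 with -0.66 in the authors' deposited table. In the Wnt pathway that induces the barrier, 3 of 24 genes rose and 0 fell, the co-receptor gene Lrp5 with 0.48, Sox18 with 0.48 and Foxf2 with 0.50 in the authors' deposited table. Of 10 genes of caveolae and vesicle transport 2 rose and 1 fell, Ehd2 with 0.33, Pacsin2 with 0.24 and Cav2 with -0.29 in the authors' deposited table.

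Endothelial markers outside the barrier set rose in 12 of 24 cases and fell in 1, with a median log2 fold change of 0.25. The vascular endothelial growth factor receptor genes Flt1 and Kdr each had 0.53 and Eng 0.40 in the authors' deposited table. Their summed implied means were 12359 in naive and 13713 in context mice. Pericyte and smooth muscle markers rose in 2 of 15 cases (Myh11 with 0.58 and Vtn with 0.30 in the authors' deposited table), and their sum went from 5779 to 6284. The median of these 15 markers was 0.22, with 14 above 0 and 1 below. Of 12 astrocyte markers 0 were called by the deposited adjusted p, with 1 at an unadjusted p under 0.05, and their sum went from 110341 to 112274. The part of these cell types in the values of Cldn5 and Slco1c1 was not tested.

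**Figure D2:**
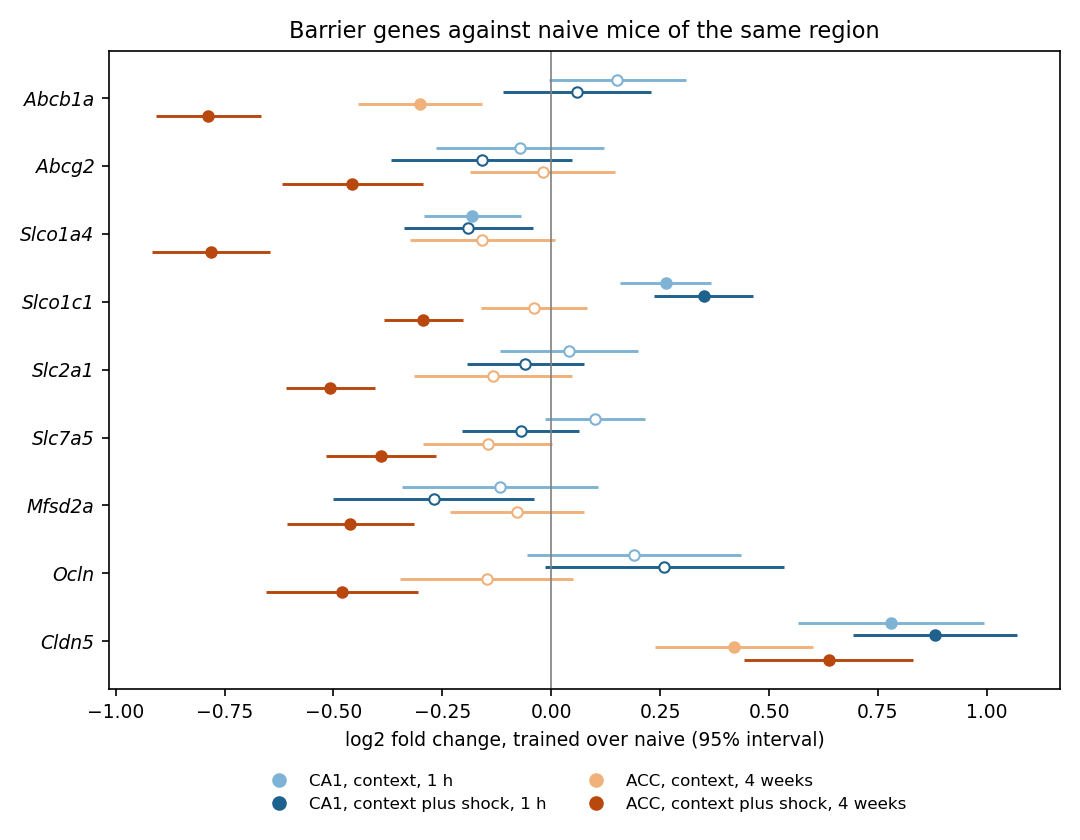
Log2 fold change of each barrier gene, trained over naive, with the 95% interval implied by its p, in the 4 comparisons. Filled points passed an adjusted p of 0.05; Cldn5 lies right of 0 in all 4, from 0.42 to 0.88, and the other 8 genes lie left of 0 in ACC after shock, from -0.79 to -0.29.

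In CA1 at 1 h after context plus shock the same pair was called higher. Cldn5 had implied means of 393 in naive and 723 in shocked mice, or 0.88 on the log2 scale by the authors' deposited table (interval 0.69 to 1.07, adjusted p = 6.8e-17). Slco1c1 had 1192 and 1519, or 0.35 on the log2 scale by the authors' deposited table (interval 0.24 to 0.46, adjusted p = 3.68e-07). Both comparisons in CA1 use the same naive libraries. These 2 calls among 9 members stand beside 6.05% of all 15115 genes called, 3.21% higher and 2.84% lower. The median over the members was -0.06, against -0.01 over all genes, with 4 members above 0 and 5 below, and their summed implied means were 7900.2 and 8192.

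Among the other members Mfsd2a and Slco1a4 were lower at an unadjusted p under 0.05 without passing the adjusted threshold. Mfsd2a had 457 and 379, or -0.27 on the log2 scale by the authors' deposited table (interval -0.50 to -0.04, adjusted p = 0.165). Slco1a4 had 1224 and 1073, or -0.19 on the log2 scale by the authors' deposited table (adjusted p = 0.116). The junction gene Ocln had 191 and 229, or 0.26 on the log2 scale by the authors' deposited table (interval -0.01 to 0.53, adjusted p = 0.304). Abcb1a, Abcg2, Slc2a1 and Slc7a5 lay between -0.16 and 0.06 in the authors' deposited table, whose values are rounded to 2 decimals.

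In the same mice, where 3.21% of all genes were called higher and 2.84% lower, 2 of 26 further transporters rose and 1 fell. Slc16a1 had 0.41, Slc7a1 0.23 and Tfrc -0.25 in the authors' deposited table. Junction genes outside the set rose in 2 of 19 cases and fell in 1, with 0.49 for the junction scaffold gene Cgnl1, 0.22 for Ctnnd1 and -1.05 for Cldn1 in the authors' deposited table. Wnt pathway genes rose in 2 of 24 cases and fell in 1, Lrp5 with 0.42, Tnfrsf19 with 0.19 and Ndp, which encodes the ligand norrin, with -0.34 in the authors' deposited table. Of 10 genes of caveolae and vesicle transport 0 were called by the deposited adjusted p, and 0 had an unadjusted p under 0.05. Endothelial markers rose in 8 of 24 cases and fell in 1 (Kdr with 0.60, Pecam1 with 0.56 and Flt1 with 0.53 in the authors' deposited table), and their summed implied means were 12454 and 13717. The median of these 24 markers was 0.20, with 20 above 0 and 4 below. Pericyte and smooth muscle markers rose in 3 of 15 cases, Acta2 with 0.78, Myh11 with 0.67 and Pdgfrb with 0.26 in the authors' deposited table, and their sum went from 5819 to 6608. The median of these 15 markers was 0.26, with 12 above 0 and 2 below. Of 12 astrocyte markers 0 were called by the deposited adjusted p (1 at an unadjusted p under 0.05), with sums of 111277 and 108812. The part of these markers in the values of Cldn5 and Slco1c1 after shock was not tested.

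Shock was set against context in CA1 as the difference of the fold changes. Of the 9 members 0 differed (normal score of the difference with Benjamini-Hochberg adjustment; 0 at an unadjusted p under 0.05), where 0.00665% of 15034 genes did. Cldn5 differed by 0.10 on the log2 scale (interval -0.19 to 0.38) and Slco1c1 by 0.09 (interval -0.07 to 0.24). Slc7a5 had the largest gap in size among the members, -0.17 (interval -0.35 to 0.01). These errors are too large, since both comparisons share the naive mice. With that covariance counted (a correlation of 0.4714 from the group sizes) 0 members were still called by the adjusted p, and Slc7a5 was the 1 member at an unadjusted p under 0.05 (interval -0.30 to -0.04, adjusted p = 0.793).

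At 4 weeks after the context alone, Cldn5 was higher and Abcb1a lower in ACC than in naive mice. Cldn5 had implied means of 334 in naive and 447 in context mice, or 0.42 on the log2 scale by the authors' deposited table (interval 0.24 to 0.60, adjusted p = 0.00012). Abcb1a (chromosome 5, 8660077 to 8748575) had 677 and 549, or -0.30 on the log2 scale by the authors' deposited table (interval -0.44 to -0.16, adjusted p = 0.000542). These were 2 of 9 members, beside 19.6% of all 15270 genes called (9.37% higher and 10.2% lower), a share of the same order. The other 7 members all stood below 0, from -0.16 (Slco1a4) to -0.02 (Abcg2) in the authors' deposited table, and none passed (adjusted p 0.170 to 0.911). For Slc2a1 the implied means were 2115 and 1928 and for Ocln 203 and 183. The median over members was -0.13, against 0.00361 over all genes.

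In ACC after context, where 9.37% of all genes were called higher and 10.2% lower, few other barrier genes were called. Of 26 further transporters 1 rose and 1 fell: Slc29a1, a nucleoside carrier gene, had 0.29 and Slc7a1 -0.48 in the authors' deposited table. Of 19 further junction genes 0 were called by the deposited adjusted p, with 2 at an unadjusted p under 0.05. Fzd4, the receptor of the barrier-inducing ligand norrin, fell with a log2 fold change of -0.83 and Lrp6 with -0.21 in the authors' deposited table, 2 of 24 Wnt pathway genes, of which 0 rose. Plvap, a gene of fenestrated vessels that the mature barrier keeps low, was the 1 of 10 caveolae and vesicle genes called, with 0.35 in the authors' deposited table. Endothelial markers rose in 2 of 24 cases and fell in 0 (Ly6e and Egfl7 with 0.27 each in the authors' deposited table), with sums of 14951 and 15966. The median of these 24 markers was 0.06, with 15 above 0 and 9 below, and Ly6e had the highest mean of the list (4014). Of 15 pericyte and smooth muscle markers 0 were called by the deposited adjusted p (2 at an unadjusted p under 0.05). Astrocyte markers rose in 3 of 12 cases and fell in 1, S100b with 0.28, Gja1 with 0.12 and Slc4a4 with -0.26 in the authors' deposited table. What these markers contribute to the values of Cldn5 and Abcb1a was not tested.

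At 4 weeks after context plus shock, the 7 transporters and Ocln were lower in ACC than in naive mice, while Cldn5 was higher. Abcb1a had implied means of 739 in naive and 428 in shocked mice, 1.73-fold lower, or -0.79 on the log2 scale by the authors' deposited table (interval -0.91 to -0.67, adjusted p = 5.59e-35). Slco1a4 had 1582 and 921, or -0.78 on the log2 scale by the authors' deposited table (interval -0.92 to -0.65, adjusted p = 1.14e-27). Only 0.686% of all genes had a lower fold change than Abcb1a and 0.705% than Slco1a4. These encode an efflux pump and a carrier of organic anions.

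The nutrient and hormone carriers fell too. Slc2a1 (chromosome 4, 119108711 to 119137330) had implied means of 2307 and 1624, or -0.51 on the log2 scale by the authors' deposited table (interval -0.61 to -0.40, adjusted p = 1.87e-20). Slc7a5 (chromosome 8, 121881150 to 121907694) had 1839 and 1403, or -0.39 on the log2 scale by the authors' deposited table (adjusted p = 1.81e-08). Mfsd2a (chromosome 4, 122946850 to 122961188) had 474 and 344, or -0.46 on the log2 scale by the authors' deposited table (interval -0.61 to -0.32, adjusted p = 6.52e-09). Slco1c1, the thyroxine carrier that was higher in CA1, had 1481 and 1208 here, or -0.29 on the log2 scale by the authors' deposited table (interval -0.38 to -0.20, adjusted p = 2.74e-09).

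The second efflux pump, Abcg2 (chromosome 6, 58584523 to 58692869), had implied means of 519 and 378, or -0.46 on the log2 scale by the authors' deposited table (interval -0.62 to -0.29, adjusted p = 3.39e-07). The junction genes went opposite ways. Ocln (chromosome 13, 100496507 to 100552718) had 222 in naive and 159 in shocked mice, or -0.48 on the log2 scale by the authors' deposited table (interval -0.66 to -0.30, adjusted p = 6.99e-07). Cldn5 had 367 and 570, or 0.64 on the log2 scale by the authors' deposited table (interval 0.44 to 0.83, adjusted p = 1.55e-09), above that of 99.0% of all genes.

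All 9 members were thus called in ACC after shock, 8 lower and 1 higher. The background is high, since 41.6% of all 15455 genes were called in this comparison, 21.8% lower and 19.8% higher. The members' median log2 fold change was -0.46, against 0.00627 over all genes, and their summed implied means went from 9530.4 to 7036. Abcb1b, a close paralog of Abcb1a that lies 49.6 kb away, had a mean of 65.0 and stood at -0.06 on the log2 scale by the authors' deposited table (adjusted p = 0.795); how reads shared by the pair were counted is not given in the sources used here. Exons of Abcb1a and Slc2a1 overlap transcripts on the other strand (Gm42686 by 553 bases and Gm12868 by 105 bases), and the kit named in the labels does not mark strand.

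Genes of the wider barrier lists were called in both directions in ACC after shock, where 19.8% of all genes were called higher and 21.8% lower. Of 27 further transporters 3 rose and 9 fell: Tfrc had -0.53, Slc7a1 -0.47 and the efflux pump gene Abcc5 0.36 in the authors' deposited table. Junction genes outside the set rose in 1 of 19 cases and fell in 6, the junction scaffold gene Tjp1 (ZO-1) with -0.20, Jam2 with -0.27 and Mllt4 (afadin) with -0.13 in the authors' deposited table. Of 24 Wnt pathway genes 2 rose and 7 fell, Fzd4 with -1.17, the Wnt target gene Apcdd1 with -0.56 and Lrp6 with -0.28 in the authors' deposited table. Of 10 genes of caveolae and vesicle transport 3 rose and 4 fell, with 0.47 for Plvap, -0.29 for Cav2 and -0.17 for the clathrin gene Cltc in the authors' deposited table.

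In the same comparison, with 19.8% of all genes higher and 21.8% lower, endothelial markers outside the barrier set fell in 17 of 24 cases and rose in 2. Their median was -0.31. Flt1 had -0.49, Vwf (von Willebrand factor) -0.75 and Eltd1 -0.70 in the authors' deposited table. Their summed implied means were 16322 in naive and 14909.5 in shocked mice, and 24 of the 25 genes listed as markers were measured, all but Esm1, with means of 41.0 to 4339. Pericyte and smooth muscle markers fell in 6 of 15 cases and rose in 1, Rgs5 with -0.49, Abcc9 with -0.69 and Notch3 with -0.49 in the authors' deposited table, and their sum went from 6383 to 5483. The median of these 15 markers was -0.02, with 6 above 0 and 9 below, and Rgs5 had the highest mean of the list (2287). Astrocyte markers fell in 4 of 12 cases and rose in 2, with -0.43 for Slc4a4, -0.30 for Aqp4 and -0.30 for Slc1a2 in the authors' deposited table, and their sum went from 109211 to 96573. The median of these 12 markers was -0.02, with 5 above 0 and 7 below, and Slc1a2, with a mean of 55278, weighs heavily in the sum. The part of these markers in the members' values was not tested.

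**Figure D3:**
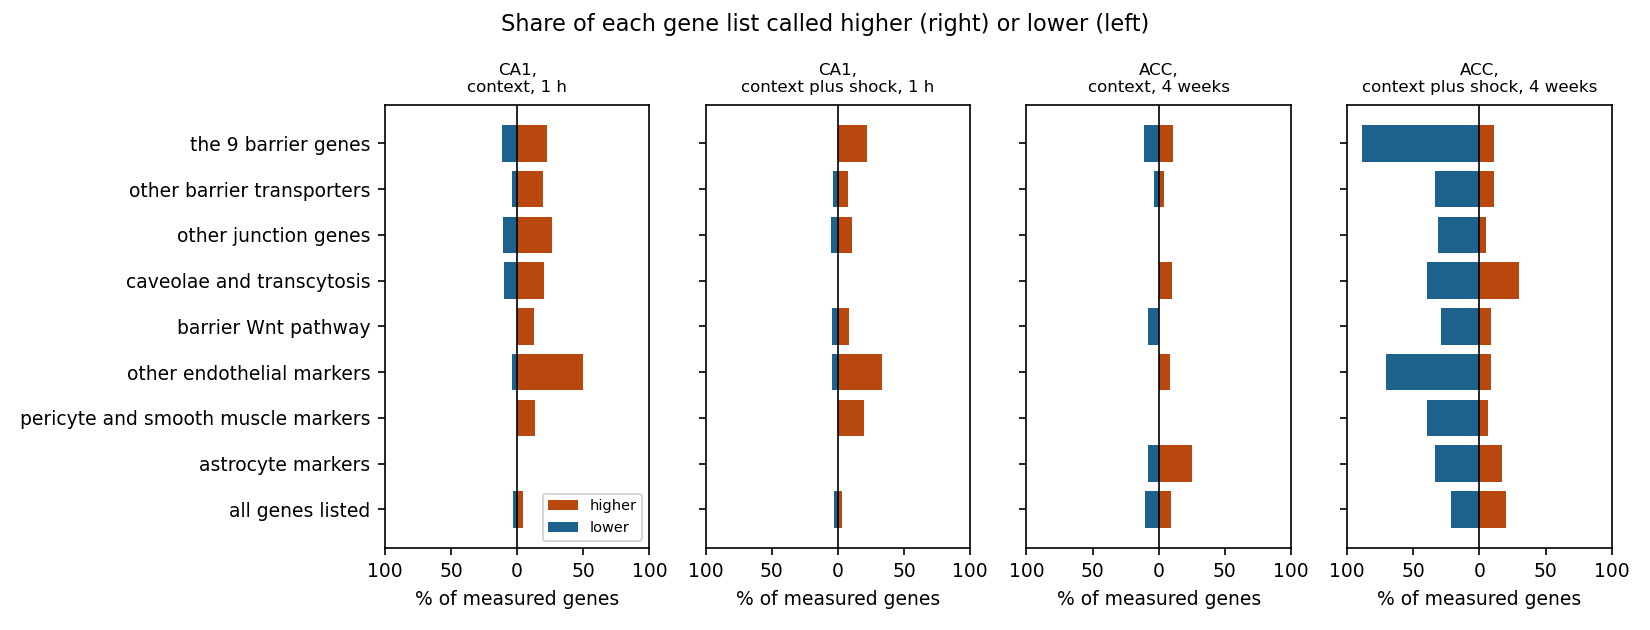
Percentage of the measured genes of each list called higher (right of 0) or lower (left of 0) at an adjusted p under 0.05, 1 panel per comparison, with all genes listed in the bottom row. In ACC after shock 8 of the 9 barrier genes and 17 of 24 other endothelial markers lie on the lower side, beside 21.8% of all genes.

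Fold changes in ACC followed transcript length and GC content across genes. Spearman's rho with length was -0.61 after context and -0.53 after shock, and with GC content 0.21 and 0.56, over genes whose mean reached 100, which are not independent replicates. In CA1 rho with length was 0.17 after context and 0.08 after shock, and with GC content 0.34 and 0.03. Members ranged in longest transcript from 1416 bases (Cldn5, 60.5% GC) to 5717 bases (Abcg2, 39.2% GC), with a median of 3367 bases over the genes of the ACC context table. Cldn5, annotated with 1 exon, has the shortest transcript of the 9 and is the member that was higher.

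With a trend on length and GC removed, all 9 members were still called in ACC after shock in the same directions. Over all genes 41.6% were called in this comparison as deposited, and fewer with the trend removed. Abcb1a went from -0.79 to -0.65, Slco1a4 from -0.78 to -0.63 and Ocln from -0.48 to -0.34. Cldn5 went from 0.64 to 0.40 (adjusted p = 0.000589) and Abcg2 from -0.46 to -0.21 (adjusted p = 0.0437), where the trend value for Abcg2 was -0.24. Mfsd2a, Slc2a1 and Slc7a5 moved further from 0, to -0.61, -0.61 and -0.51. After context Cldn5 went from 0.42 to 0.32 (adjusted p = 0.0107) and Abcb1a from -0.30 to -0.22 (adjusted p = 0.0274), both still called, and Abcg2, not called either way, went from -0.02 to 0.11.

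**Figure D4:**
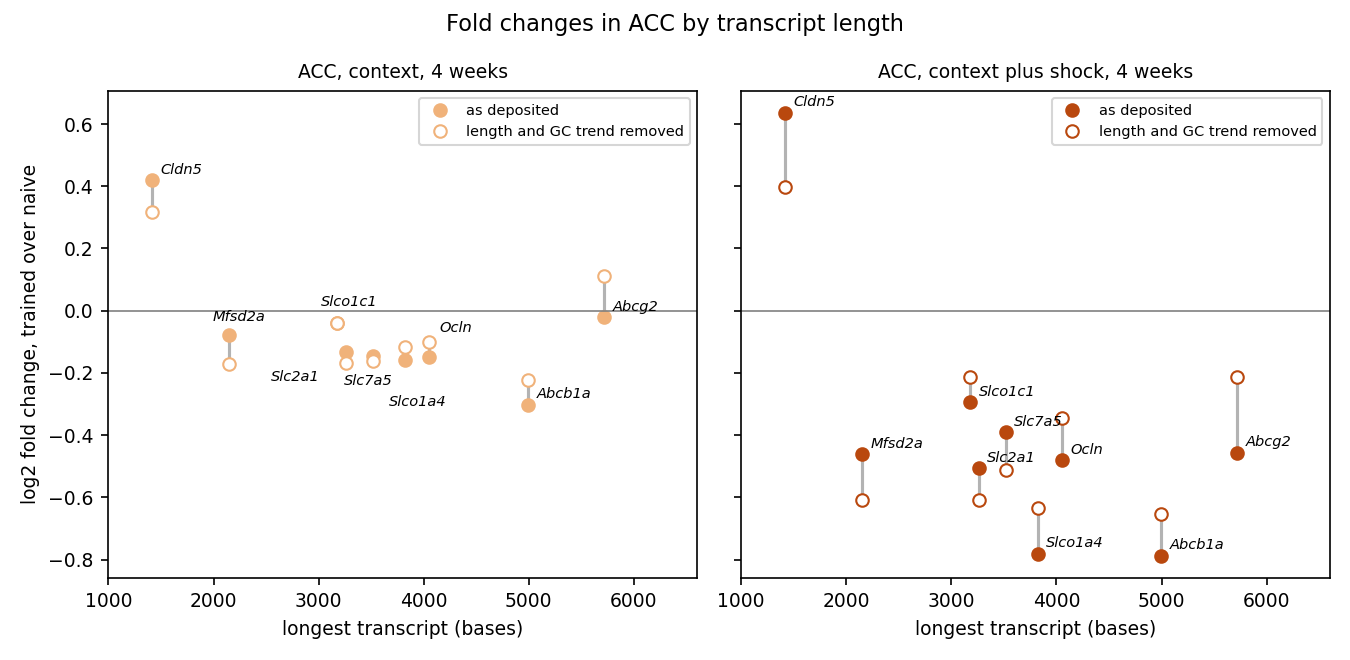
Log2 fold change of each barrier gene in ACC against the length of its longest transcript in bases, as deposited (filled) and with the trend on length and GC content removed (open), joined by a line. After shock Cldn5 stays above 0, at 0.40, and the 8 longer members stay below 0.

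Exonic bins are a second readout of the same libraries, tested for use relative to the whole gene, and the authors' deposited tables list bins with an adjusted p under 0.1. In CA1 0 of the 9 members had a listed bin, where 1.08% of genes had one after context and 1.14% after shock. At such shares a count of 0 among so few genes says little. Cldn5 is annotated with 1 exon, which leaves little within the gene to compare in either region. After context in ACC 3 members had 4 listed bins, beside 17.9% of genes with a listed bin. Bin E001 of Slco1a4 stood at 0.12 on the log2 scale (adjusted p = 0.0236) and bin E018 of Slc2a1 0.10 (adjusted p = 0.0409) in the authors' deposited table. For Slc7a5, E001 had 0.07 (adjusted p = 0.0885) and E015 -0.42 (adjusted p = 0.0731) in the authors' deposited table. After shock only E001 of Slco1a4 was listed, at 0.12 (adjusted p = 0.0960) in the authors' deposited table, beside 11.3% of genes. Slco1a4 and Slc7a5 lie on the minus strand and Slc2a1 on the plus strand, and bins were not mapped to coordinates.

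Shock was then set against context in ACC. Of the 9 members 5 were lower after shock than after context and 0 higher, beside 0.295% of 15243 genes lower, 1.3% higher and 1.59% in either direction (normal score of the difference with Benjamini-Hochberg adjustment). The members were chosen with earlier results of these data known, so their count beside all genes is a description only. The difference was -0.62 on the log2 scale for Slco1a4 (interval -0.84 to -0.41, adjusted p = 4.03e-05), -0.49 for Abcb1a (interval -0.67 to -0.30, adjusted p = 0.000177) and -0.44 for Abcg2 (adjusted p = 0.0223). It was -0.38 for Mfsd2a (adjusted p = 0.0305) and -0.37 for Slc2a1 (adjusted p = 0.0350). Slco1c1 (-0.25, adjusted p = 0.0599), Ocln (-0.33, adjusted p = 0.258) and Slc7a5 (-0.24, adjusted p = 0.260) did not pass. Cldn5 differed by 0.22 (interval -0.05 to 0.48, adjusted p = 0.556). This difference was not tested with the length and GC trend removed. With that trend removed, log2 fold changes after context and shock were -0.12 and -0.63 for Slco1a4 and -0.22 and -0.65 for Abcb1a. They were 0.11 and -0.21 for Abcg2, -0.17 and -0.61 for Mfsd2a and -0.17 and -0.61 for Slc2a1.

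The members' median difference was -0.37, against -0.02 over all genes. The summed errors leave out that both groups share the naive mice and are then too large. With that covariance counted (a correlation of 0.5 from the group sizes) 8 members were called lower, all but Cldn5, beside 5.09% of all genes lower and 10.5% in either direction. Endothelial markers outside the set had nearly the same median difference as the members, -0.36. With summed errors 6 of these 24 markers were called lower and 0 higher, and with the covariance counted 16 were lower and 0 higher.

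**Figure D5:**
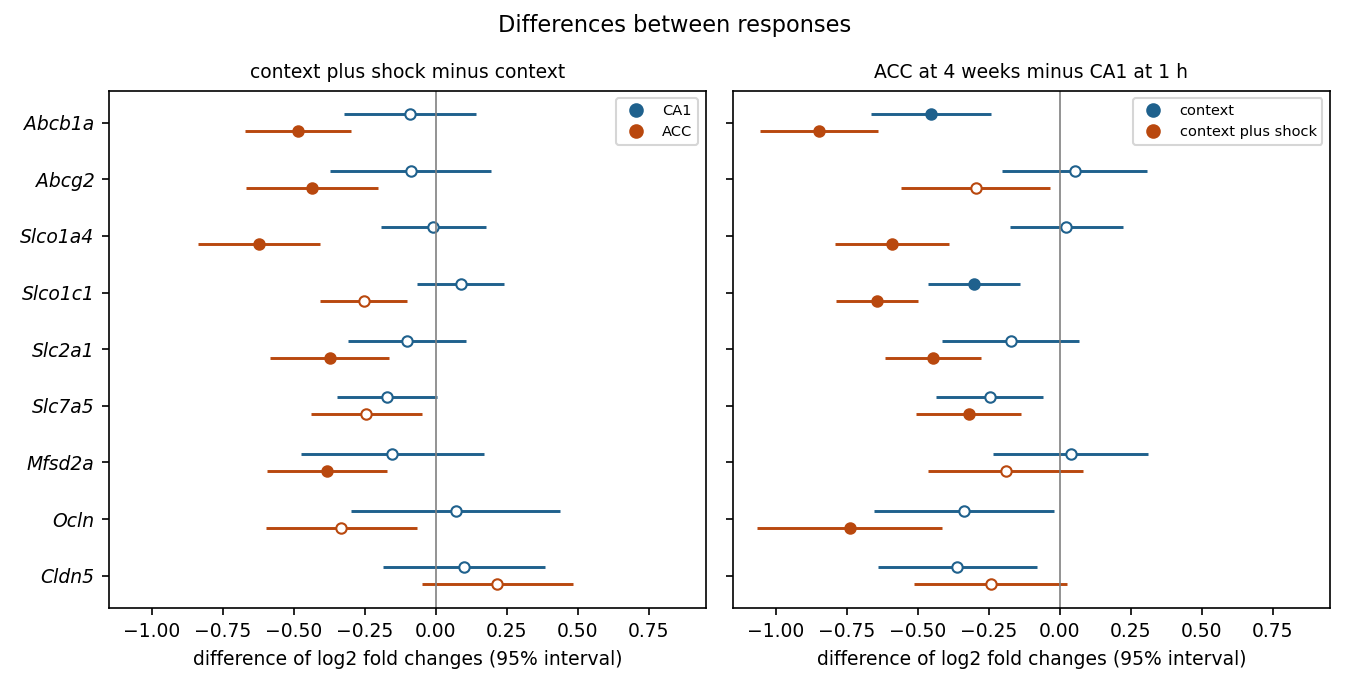
Differences of log2 fold changes with 95% intervals for the 9 barrier genes: context plus shock minus context (left, CA1 and ACC) and ACC at 4 weeks minus CA1 at 1 h (right, context and context plus shock). Filled points passed an adjusted p of 0.05; in ACC 5 members differ between shock and context, from -0.62 to -0.37.

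Responses in ACC at 4 weeks were also set against those in CA1 at 1 h, which differ in region and time together. After shock 6 of 9 members had a lower log2 fold change in ACC and 0 a higher one, beside 14.2% of 14942 genes lower, 10.8% higher and 25% in either direction. The gap was -0.85 for Abcb1a, -0.74 for Ocln and -0.64 for Slco1c1, the last of which was called higher in CA1 and lower in ACC. After context 2 of 9 members, Abcb1a (-0.45) and Slco1c1 (-0.30), had a lower fold change in ACC, beside 8.89% of 14859 genes lower, 5.52% higher and 14.4% in either direction. Cldn5 was higher than naive in both regions, and its gaps of -0.36 after context (interval -0.64 to -0.08, adjusted p = 0.0700) and -0.24 after shock (interval -0.51 to 0.03, adjusted p = 0.193) did not pass. With the length and GC trend removed both did, at -0.48 (adjusted p = 0.0202) and -0.54 (adjusted p = 0.00172).

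By Euclidean distance over the 4 log2 fold changes, over 12292 genes whose mean reached 50 in every table, the genes closest to Cldn5 were Vstm4 (distance 0.23), Fabp7 (0.33), Plk5 (0.41), Nfil3 (0.43) and Nptx2 (0.45). Vstm4 had log2 fold changes of 0.79 and 0.71 in CA1 and of 0.32 and 0.75 in ACC, after context and shock, in the authors' deposited tables. No other barrier member could be among these 5, since in ACC after shock Cldn5 stood at 0.64 and the other 8 at -0.29 or below.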

How the data were processed

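RNA-seq of 29 libraries in 6 groups was deposited as comparisons. Per the labels' protocols, libraries came from a TruSeq v2 kit; the build mm10 and the tools STAR 2.3.0e, CASAVA 1.8.2, DESeq2 and SAMtools are listed without roles per the submitters' processing notes. Per the file headers the authors deposited for each gene its mean normalised count (a signal), log2 fold change and p-value, raw and adjusted, and the same per exonic bin. The CA1 shock table is rounded to 2 decimals. The planned count test needed values per library, so the deposited adjusted p was used, called under 0.05. Errors are fold changes over the normal scores of their p (taking these as Wald tests); for CA1 shock values under 0.05 in size, the context error times 1.08 was used. Intervals of 95% use these errors. The longest GENCODE M21 transcript gave each gene's length and GC content, fitted by a spline with 5 knots. Steps were tested on simulated data. Members and the 13 other lists (201 entries) were chosen with earlier results of these data known. Named besides the members were up to 3 called genes of smallest p per list, and the 5 genes closest to Cldn5. The region genes Wfs1, Fibcd1, Spink8, Cux2, Rorb and Tbr1 and the neighbour Abcb1b were added for checks. The labels do not tie each library to 1 mouse, so p-values measure the spread between these libraries, which may be technical. Python 3.11.15, numpy 2.4.6, pandas 2.3.3, scipy 1.17.1, scikit-learn 1.9.0 and matplotlib 3.10.9 were used.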

Additional observations from a re-analysis of the deposited data

Results flagged for a closer look

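The following members responded differently in ACC at 4 weeks and CA1 at 1 h by a test of the difference of log2 fold changes (ACC minus CA1); region and time differ together. After context these were Abcb1a (-0.453, adjusted p = 0.000814) and Slco1c1 (-0.302, adjusted p = 0.00419). After context plus shock they were Abcb1a (-0.848, adjusted p = 1.04e-12), Ocln (-0.740, adjusted p = 0.000143), Slco1c1 (-0.644, adjusted p = 4.85e-15), Slco1a4 (-0.591, adjusted p = 4.34e-07), Slc2a1 (-0.447, adjusted p = 7.06e-06) and Slc7a5 (-0.320, adjusted p = 0.00504). No value per library was at hand, so single libraries could not be looked at for outlying values.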

How the results depend on the processing

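Of 360 values of single members under an alternative, 345 kept their direction and side of the threshold, 3 lost a call, 9 gained one and 3 turned direction. Those that turned were not called either way, all with the length and GC trend removed: Abcg2 in ACC after context (-0.02 to 0.11), and the ACC minus CA1 difference after context of Slco1a4 (0.023 to -0.0388) and of Mfsd2a (0.038 to -0.0375). The 3 losses were all of Slco1a4 in CA1 after context, at an adjusted p under 0.01, at a minimum size of 0.25 (log2), and after removal of the length and GC trend. In ACC after shock, where 41.6% of all genes were called as deposited, all 9 members were called under each of the 7 alternatives. The count of members that differed between shock and context in ACC went from 5 to 8 with the shared naive group counted, where all genes went from 243 to 1607. Between ACC and CA1 after context the members called went from 2 to 4 at an adjusted p under 0.1, where all genes went from 14.4% to 19.3%. At that threshold Abcg2 also passed the test of the difference between ACC and CA1 after shock (adjusted p = 0.0906). All genes called in that difference went from 25% to 31.1%. Slco1c1 passed the test of the difference between shock and context in ACC (adjusted p = 0.0599), where 1.59% of all genes were called at 0.05. Over all genes, an adjusted p under 0.01 gave 519 calls in CA1 after context (1214 at 0.05), 435 in CA1 after shock (915) and 1809 in ACC after context (2987), and one under 0.1 gave 1404 in CA1 after shock. A minimum absolute log2 fold change of 0.25 gave 730 in CA1 after context, 1700 in ACC after context and 3147 in ACC after shock (6433). Removing the length and GC trend gave 619, 1495 and 3733 in the same order, and 929 (2141) and 2187 (3731) genes between ACC and CA1 after context and after shock; the cause was not tested. No paired analysis was possible because the tables give no value per library, and leaving out single replicates was not run for the same reason.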

Other observations

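Markers of 6 further cell types were also counted. Of all genes 8.03% and 6.05% were called in CA1 after context and shock, and 19.6% and 41.6% in ACC. Microglial markers were called higher in 1 of 12 cases in CA1 after context, 0 after shock (5 at an unadjusted p under 0.05), 7 in ACC after context and 6 after shock, with 0 lower in each; Aif1 had log2 fold changes of 0.59 and 0.44 in ACC in the authors' deposited tables. Meningeal markers were higher in 1 and 4 of 12 cases in ACC after context and shock, and Slc6a13, a transporter gene of meningeal cells, had 0.54 and 0.77 in the authors' deposited tables. None of the 12 was called in CA1 by the deposited adjusted p (1 after context and 2 after shock at an unadjusted p under 0.05). Choroid plexus markers were lower in 1 of 6 measured cases in ACC after context and 3 of 8 after shock, and in CA1 1 of 7 was higher and 1 lower after shock, with 0 called after context (1 at an unadjusted p under 0.05); Ttr had -1.30 in ACC after shock in the authors' deposited table, with a mean of 94.9. Of 10 oligodendrocyte markers 2 were higher and 2 lower in ACC after shock, and 0 were called elsewhere by the deposited adjusted p (0, 1 and 1 at an unadjusted p under 0.05 in CA1 after context, CA1 after shock and ACC after context). Of 10 neuronal markers 1 was higher and 1 lower in ACC after context, and 2 higher and 3 lower after shock, with 0 called in CA1 by the deposited adjusted p (4 after context and 1 after shock at an unadjusted p under 0.05). Of 6 measured blood cell markers 0 were called in any comparison by the deposited adjusted p (0, 2, 1 and 1 at an unadjusted p under 0.05, in CA1 after context and shock and in ACC after context and shock). Their part in the barrier genes' values was not tested.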
